A study of Mus musculus with 12 samples.

Results

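The genes described here are 10 glutathione S-transferase (GST) genes, chosen by symbol from the 24421 gene symbols in the count files. They were Gsta1, Gsta2, Gsta3 and Gsta4 of the alpha class, Gstm1 and Gstm5 of the mu class, Gstp1 of the pi class, Gstt1 of the theta class, Gsto1 of the omega class, and the microsomal Mgst1. They were picked by name, with earlier results of these data known, and all 10 genes passed the filter of at least 1 CPM (counts scaled to library size, and for the levels below to the TMM-normalized library size) in at least 3 libraries, as 11638 genes did.

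GSTs couple reduced glutathione to electrophilic compounds, which makes these compounds more soluble and marks them for export. The cytosolic enzymes are dimers and are grouped into classes named alpha, mu, pi, theta and omega, and a separate family of microsomal enzymes sits in membranes. Sulforaphane (SFN), an isothiocyanate from cruciferous vegetables, is itself conjugated to glutathione by GSTs and is known to activate Nrf2, a transcription factor that binds antioxidant response elements in the promoters of several GST genes. 5-aza-2′-deoxycytidine (DAC) is incorporated into DNA and traps DNA methyltransferases, so that methylation at CpG sites is lost as cells divide.

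Polyadenylated RNA was sequenced from B16F10, an established mouse melanoma cell line, in 4 groups of 3 libraries each. Controls received the vehicle dimethyl sulfoxide (DMSO), labelled as 0.025%. The labels give no DMSO level for treated cells, and the study dissolved SFN in water. The groups may therefore also differ in DMSO, which was not tested. DAC cells received 25 nM DAC for 72 h, SFN cells received SFN for the last 48 h, and combination (DAC+SFN) cells received both on the same schedule. The labels give SFN as 5 nM alone and 5 µM in combination, whereas the study's methods give 5 µM for both, so the dose of SFN alone cannot be settled from these sources. Replicates were 3 independent repeats of a single line, so all p-values describe repeats of B16F10 cultures and not other melanomas.

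The libraries held 15880957 to 27291436 counts, so that 1 CPM stood for 16 to 27 counts. All 8 melanocyte lineage markers examined were expressed in every group, with summed levels of 22434 to 31212 CPM. Leukocyte, endothelial and hepatocyte markers summed to at most 0.67 CPM in any library, and epithelial markers to at most 1.59 CPM. Fibroblast markers summed to 19.6 to 366 CPM, most of it Col1a1, while Dcn and Lum were at or near 0. In bulk RNA, fewer cells that express a gene and less RNA per cell cannot be told apart.

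In control cells the 10 genes spanned a wide range of levels, compared here as CPM per kilobase of exon. Gstp1, an enzyme known for conjugating small electrophiles, had the highest level at 94.7 ± 3.57 (mean ± SD, n = 3), followed by Gstm1 at 65.8 ± 9.26. These leading genes did not overlap each other or the remaining 8 genes across the 3 control libraries. Next came Gsta4 at 24.1 ± 15.8, Gstm5 at 23.1 ± 3.75, Gsto1 at 18.9 ± 3.02 and Mgst1 at 14.8 ± 4.49, neighbours in the order whose ranges over the control libraries overlapped. Gsta2 at 9.83 ± 5.77 and Gsta1 at 9.47 ± 3.31 followed and overlapped each other. Gstt1 at 0.535 ± 0.309 and Gsta3 at 0.265 ± 0.0749 were the lowest, under 1 CPM per kilobase in every control library and overlapping each other. With SFN the level of Gsta3 reached 4.14 ± 1.87 CPM per kilobase, still below those of Gstp1 and Gstm1 in control cells.

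**Figure D1:**
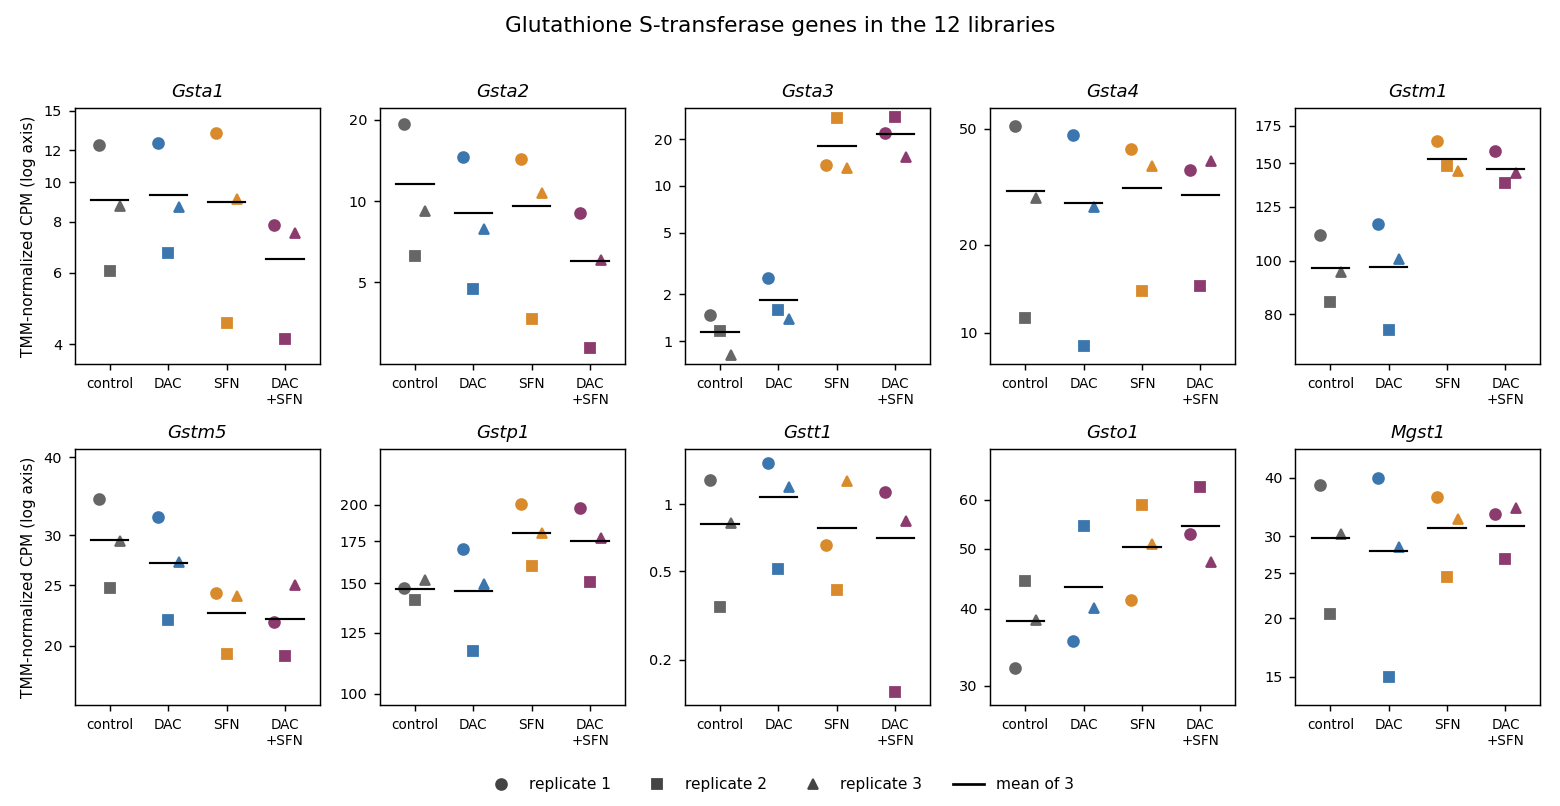
Each panel plots 1 GST gene, with TMM-normalized CPM on a logarithmic axis that differs between panels, treatment group on the horizontal axis, a circle, square or triangle for replicate 1, 2 or 3, and a line for the mean of 3. Gsta3 lies at 0.822 to 2.57 CPM in the 6 libraries without SFN and at 13 to 27.6 CPM in the 6 libraries with SFN, while in the panels of Gsta2, Gsta4 and Mgst1 the squares of replicate 2 lie lowest in each group.

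SFN against control addressed GST transcripts after the isothiocyanate without DAC, together with any difference in DMSO. The test was edgeR's quasi-likelihood test with the replicate number as a block, and a gene was called at a Benjamini-Hochberg adjusted p under 0.05 over 11638 genes. Gsta3, Gstm1, Gstp1 and Gsto1 rose and Gstm5 fell, which is 5 of 10 against 13.9% of all genes tested, with 4 of 10 higher against 8.27% and 1 of 10 lower against 5.65%. The median log2 fold change of the 10 genes was 0.10, beside 0.00 for all genes tested. Only Gsta3 changed by more than 2-fold, while 1.28% of all genes were called with a change of that size.

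Gsta3 encodes an alpha-class subunit that in mice is known for its activity toward the epoxide of aflatoxin B1. The gene lies on the plus strand of chromosome 1 (chr1:21240589-21265661, mm10), apart from the other alpha genes, and 100% of the 75-base windows of its exons occur in no other gene. Control libraries held 32, 27 and 16 counts, or 1.47, 1.16 and 0.822 CPM in replicates 1, 2 and 3. With SFN it stood at 13.6, 27.4 and 13 CPM. Every SFN library was above every control library, which held for 10.9% of all genes whatever the size of the gap. The change was 15.3-fold (95% interval 10.7 to 21.9), or 3.94 ± 0.24 (SE) on the log2 scale (adjusted p = 8.12e-07), the smallest p-value of all 11638 genes. Without the replicate block it also passed (adjusted p = 0.00139).

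The promoter of Gsta3 is shown because it holds the core of an antioxidant response element, searched as TGACNNNGC on both strands, beside those of Gsta1 and Gsta2, alpha genes that did not rise and whose windows hold neither this core nor TGANTCAGC, a related motif. The sequences are RefSeq windows of the GRCm38.p6 build from 250 bases before to 50 bases after the annotated start, and 9 of the 10 genes had such an entry. The core begins 121 bases before the Gsta3 start as TGACATTGC, in capitals. It occurs in 12.4% of 32851 promoter windows of this length, and TGANTCAGC in 1.19%, so a match describes the letters and not a bound site. No member's window held both. Sequence farther than 250 bases before the start was not searched, so a window without a match does not show that the gene lacks one. Across the 10 genes motif and response did not go together. Gstm1 and Gsto1 rose with neither motif in their windows, while Gstm5 and Mgst1 held TGACNNNGC and did not rise.
Gsta3 (chr1:21240335-21240634, plus strand): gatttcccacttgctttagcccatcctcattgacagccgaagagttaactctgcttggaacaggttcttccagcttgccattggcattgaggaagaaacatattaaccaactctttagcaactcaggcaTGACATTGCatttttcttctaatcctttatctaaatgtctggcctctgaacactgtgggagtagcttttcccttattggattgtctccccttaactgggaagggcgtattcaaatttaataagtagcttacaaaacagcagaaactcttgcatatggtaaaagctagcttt
Gsta1 (chr9:78230419-78230718, plus strand): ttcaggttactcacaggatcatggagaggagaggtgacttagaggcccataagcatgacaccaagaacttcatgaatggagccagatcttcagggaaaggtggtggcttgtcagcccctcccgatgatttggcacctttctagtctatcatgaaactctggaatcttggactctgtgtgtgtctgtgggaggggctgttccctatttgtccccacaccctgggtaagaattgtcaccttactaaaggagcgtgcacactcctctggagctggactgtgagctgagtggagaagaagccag
Gsta2 (chr9:78347096-78347395, minus strand): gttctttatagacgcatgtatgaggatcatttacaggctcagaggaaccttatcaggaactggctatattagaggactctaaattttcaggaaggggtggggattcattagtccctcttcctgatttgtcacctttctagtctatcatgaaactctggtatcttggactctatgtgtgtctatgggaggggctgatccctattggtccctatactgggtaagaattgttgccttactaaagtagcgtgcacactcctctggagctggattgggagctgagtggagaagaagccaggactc
All 3 windows are poor in CpG, with 2 such dinucleotides each, beside a median of 7 over all promoters, and 14.1% of promoters have fewer. The Gsta1 and Gsta2 windows are close relatives, with 230 of 289 aligned bases identical (79.6%).

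Gsta1 and Gsta2, in the alpha-class cluster on chromosome 9 (chr9:78230656-78242684 on the plus strand and chr9:78331018-78355788 on the minus strand), encode alpha subunits known for conjugating a broad range of electrophiles and for reducing lipid hydroperoxides. Gsta1 measured 12.4, 6.07 and 8.73 CPM in control and 13.3, 4.52 and 9.12 CPM with SFN. Gsta2 measured 19.2, 6.28 and 9.19 CPM in control and 14.3, 3.65 and 10.8 CPM with SFN. The groups overlapped for both genes. The log2 fold change was -0.06 for Gsta1 (95% interval -0.37 to 0.25, adjusted p = 0.829) and -0.30 for Gsta2 (95% interval -0.62 to 0.03, adjusted p = 0.212). For Gsta2 the value ran from -0.58 to -0.13 when libraries were left out, and it passed in 1 of 9 such fits, without all of replicate 3 (adjusted p = 0.0197). Reads from these genes are hard to assign, since 15.3% of the 75-base exon windows of Gsta1 and 63.4% of those of Gsta2 occur in no other gene, and Gsta1 shares 610 of its 880 windows with Gm3776. Gsta4, whose product conjugates the lipid peroxidation product 4-hydroxynonenal, lies in the same cluster (chr9:78182774-78209349, plus strand). Its values were 51.2, 11.2 and 29.0 CPM in control and 42.6, 13.9 and 37.2 CPM with SFN. Its log2 fold change of 0.11 (95% interval -0.24 to 0.45) was within the spread of the replicates.

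Within the mu class, the 2 genes moved in opposite directions. Gstm1, on the minus strand of chromosome 3 (chr3:108012255-108017973), encodes a major mu-class subunit. It measured 111, 84.1 and 95.5 CPM in control and 164, 148 and 145 CPM with SFN, without overlap between the groups. The rise was 1.58-fold, or 0.66 ± 0.08 (SE) on the log2 scale (adjusted p = 8.54e-05), and it missed the threshold without the replicate block (adjusted p = 0.0782). Gstm5, on the same chromosome and on the plus strand (chr3:107895821-107898686), measured 34.3, 24.7 and 29.4 CPM in control and 24.3, 19.4 and 24.0 CPM with SFN. Every SFN library was below every control library, as for 9.93% of all genes, with a change of -0.38 ± 0.09 (SE) on the log2 scale (adjusted p = 0.0107). This call was lost without the block (adjusted p = 0.287), without control replicate 1 (adjusted p = 0.0791), without SFN replicate 1 (adjusted p = 0.0595), and without all libraries of replicate 1 or of replicate 2 (adjusted p = 0.0895 and 0.109).

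Gstp1 and Gsto1 rose modestly. Gstp1, on the minus strand of chromosome 19 (chr19:4035407-4037985), measured 147, 141 and 152 CPM in control and 201, 159.6 and 180.2 CPM with SFN, without overlap. It rose 1.22-fold, or 0.29 ± 0.07 (SE) on the log2 scale (adjusted p = 0.0138). Its call was lost without the block (adjusted p = 0.325) and when control replicate 1, SFN replicate 1, SFN replicate 2 or all of replicate 1 was left out (adjusted p = 0.107, 0.0657, 0.0788 and 0.146). The Gstp1 exons share 536 of 1837 windows with the neighbouring Gstp2. Gsto1, whose product reduces dehydroascorbate and methylated arsenic and which lies on the plus strand of chromosome 19 (chr19:47854970-47864790), measured 32.1, 44.3 and 38.4 CPM in control and 41.4, 58.7 and 50.8 CPM with SFN. The group ranges overlapped, because SFN replicate 1 was below control replicate 2, but SFN was higher within each replicate number. The change was 1.32-fold, or 0.40 ± 0.08 (SE) on the log2 scale (adjusted p = 0.00593). Without the block the adjusted p was 0.322, and without all of replicate 2 it was 0.101.

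The promoters of Gstp1 and Gstm5 are shown because both hold a motif of this kind although the genes moved in opposite directions with SFN. Capitals mark TGAGTCAGC, a match to TGANTCAGC that begins 74 bases before the Gstp1 start, and TGACCACGC, a match to TGACNNNGC that begins 42 bases before the Gstm5 start.
Gstp1 (chr19:4037863-4038162, minus strand): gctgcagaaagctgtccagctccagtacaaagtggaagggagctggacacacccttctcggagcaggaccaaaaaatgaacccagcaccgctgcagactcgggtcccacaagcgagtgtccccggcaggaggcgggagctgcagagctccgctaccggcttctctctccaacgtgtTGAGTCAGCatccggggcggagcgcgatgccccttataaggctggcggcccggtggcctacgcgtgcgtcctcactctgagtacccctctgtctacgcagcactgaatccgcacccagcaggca
Gstm5 (chr3:107895604-107895903, plus strand): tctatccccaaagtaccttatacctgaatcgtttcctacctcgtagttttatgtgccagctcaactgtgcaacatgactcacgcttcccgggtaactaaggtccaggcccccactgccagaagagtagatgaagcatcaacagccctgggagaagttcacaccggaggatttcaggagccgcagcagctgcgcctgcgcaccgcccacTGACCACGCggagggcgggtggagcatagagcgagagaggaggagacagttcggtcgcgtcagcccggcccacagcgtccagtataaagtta
These windows hold 20 and 18 CpG dinucleotides. A further match to TGACNNNGC begins 56 bases before the first annotated start of Mgst1, on the opposite strand, while the windows of Gstm1, Gsto1 and Gstt1 hold neither motif.

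Mgst1 and Gstt1 did not pass the test with SFN. Mgst1, a membrane-bound transferase and peroxidase on the plus strand of chromosome 6 (chr6:138140316-138156755), measured 38.5, 20.4 and 30.3 CPM in control and 36.3, 24.5 and 32.6 CPM with SFN. Its log2 fold change was 0.09 (95% interval -0.20 to 0.38). Gstt1, a theta-class gene on the minus strand of chromosome 10 (chr10:75783813-75798584), stood at 1.29, 0.344 and 0.822 CPM in control and 0.659, 0.414 and 1.27 CPM with SFN. Its libraries held 3 to 37 counts, and the interval of its log2 fold change, -0.81 to 0.76, spans changes of more than 1.5-fold in either direction, so a change of that size was not detectable at this depth.

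**Figure D2:**
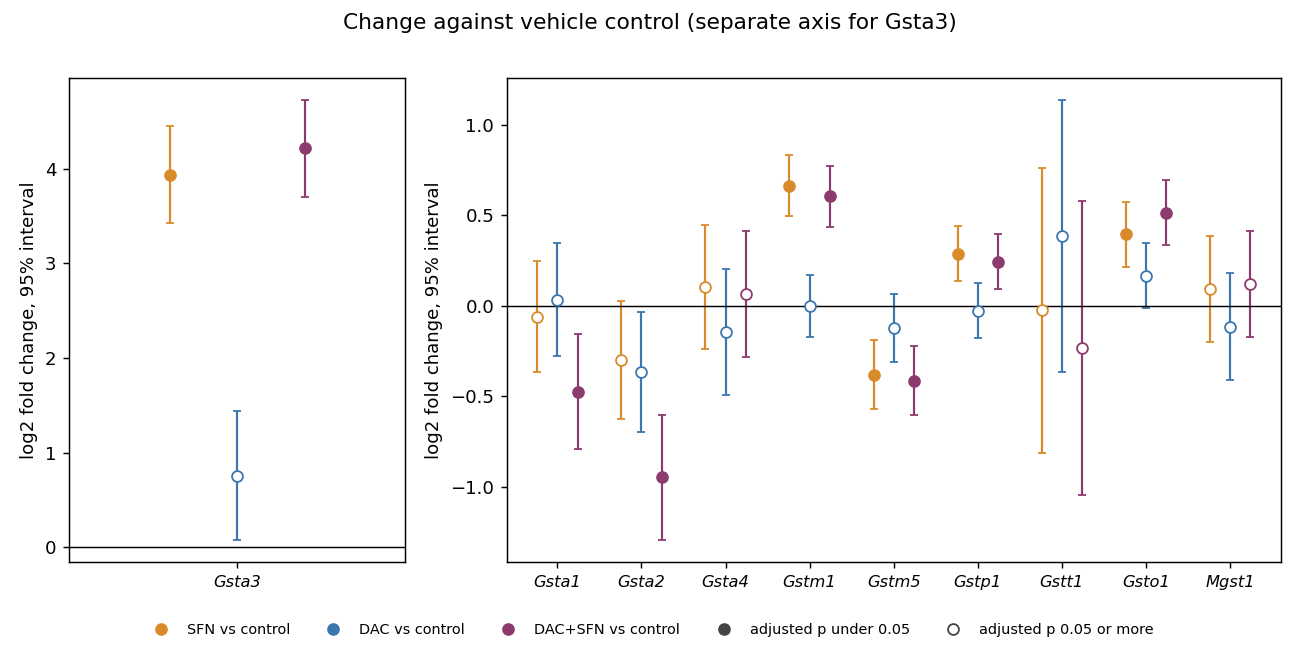
Points give the fitted log2 fold change against vehicle control and bars its 95% interval, with colours for SFN, DAC and DAC+SFN, filled points for an adjusted p under 0.05, and a separate vertical axis for Gsta3. Filled points lie above 0 for Gsta3, Gstm1, Gstp1 and Gsto1 with SFN and with DAC+SFN, and below 0 for Gstm5 with both and for Gsta1 and Gsta2 with DAC+SFN, while no DAC point is filled.

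DAC against control addressed whether 25 nM of the demethylating agent alone altered the same transcripts. None of the 10 genes passed edgeR's quasi-likelihood test at an adjusted p under 0.05, beside 0.18% of all genes tested (0.18% higher and 0% lower), and 2 of 10 had an unadjusted p under 0.05, as 10.1% of all genes did. DESeq2's Wald test also called 0. The median log2 fold change was -0.01, beside 0.00 for all genes. The 2 genes were Gsta3, at 2.57, 1.6 and 1.39 CPM with DAC, and Gsta2, at 14.5, 4.72 and 7.90 CPM with DAC. Their log2 fold changes were 0.76 (95% interval 0.08 to 1.43, adjusted p = 0.429) and -0.36 (95% interval -0.69 to -0.03, adjusted p = 0.438). Gsta3 ranges overlapped between the groups, although DAC was higher within each replicate number, and the DAC values rest on 62, 25 and 37 counts. With DAC, Gstm1 measured 116, 74.8 and 101 CPM and Gstp1 170.2, 117 and 149.5 CPM, overlapping control. Their intervals were the narrowest of the 10, at -0.17 to 0.17 and -0.18 to 0.13 on the log2 scale.

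Combination treatment against control addressed what DAC and SFN did together. Of the 10 genes 7 passed the test, 4 higher and 3 lower, against 31.6% of all genes, with 17% of all genes higher and 14.7% lower. The median log2 fold change was 0.09, beside 0.01 for all genes. Calls with a change above 2-fold were 1 of 10, against 2.66% of all genes. Gsta3, Gstm1, Gstp1 and Gsto1 rose, and Gstm5, Gsta1 and Gsta2 fell. This comparison and that of SFN with control use the same 3 control libraries.

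Among the genes that rose, Gsta3 stood at 21.8, 27.6 and 15.2 CPM with the combination. All were above every control library, which held for 15.1% of all genes whatever the size of the gap. The change was 18.6-fold (95% interval 13 to 26.5), or 4.22 ± 0.24 (SE) on the log2 scale (adjusted p = 2.11e-07). Gstm1 measured 158, 138 and 144 CPM, again above every control library, a change of 0.60 ± 0.08 (SE) on the log2 scale (adjusted p = 8.26e-05). These 2 genes also passed without the replicate block (adjusted p = 0.000481 and 0.0248), as no other member did. Gsto1 measured 52.8, 62.9 and 47.5 CPM, above every control library, a change of 0.52 ± 0.08 (SE) on the log2 scale (adjusted p = 0.000399). Gstp1 measured 197, 150.5 and 177 CPM, with replicate 2 just below control replicate 3, a change of 0.24 ± 0.07 (SE) on the log2 scale (adjusted p = 0.0169). Without the block the adjusted p was 0.0885 for Gsto1 and 0.240 for Gstp1, and the Gstp1 call was also lost without control replicate 1 or DAC+SFN replicate 1 (adjusted p = 0.140 and 0.0710) and without all of replicate 1 (adjusted p = 0.201).

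Among the genes that fell, Gsta2 dropped to 9.01, 2.87 and 6.07 CPM with the combination. It was lower than control within each replicate number, while the group ranges overlapped because control replicate 2, at 6.28 CPM, was already low. The change was to 0.518 of control (95% interval 0.408 to 0.658), or -0.95 ± 0.16 (SE) on the log2 scale (adjusted p = 0.000580). Gsta1 measured 7.88, 4.12 and 7.52 CPM, a change of -0.47 ± 0.15 (SE) on the log2 scale (adjusted p = 0.0260), also with overlapping ranges. Gstm5 measured 21.8, 19.3 and 25.0 CPM, a change of -0.41 ± 0.09 (SE) on the log2 scale (adjusted p = 0.00317). The Gstm5 ranges overlapped by 1 library, DAC+SFN replicate 3 against control replicate 2. Without the replicate block none of these 3 passed (adjusted p = 0.303 for Gsta2, 0.460 for Gsta1 and 0.112 for Gstm5), and without all of replicate 1 the Gstm5 call was lost too (adjusted p = 0.0757). The Gsta1 call was also lost without control replicate 1, control replicate 2, DAC+SFN replicate 1 or DAC+SFN replicate 2 (adjusted p = 0.0849, 0.0881, 0.170 and 0.0591), and without all of replicate 1 or of replicate 2 (adjusted p = 0.236 and 0.0864).

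Because Gsta1, Gsta2, Gm3776 and Gm10639 share exon sequence, their counts were also summed within each library. The summed alpha-class level fell with the combination by 0.67 on the log2 scale (SE 0.11, adjusted p = 0.000527). With SFN alone the sum changed by -0.27 ± 0.11 (SE, adjusted p = 0.124), and with DAC alone by -0.15 ± 0.11 (SE, adjusted p = 0.704), neither past the threshold. The Gsta1 and Gm3776 promoter windows are identical at 284 of 287 aligned bases.

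Gsta4, Mgst1 and Gstt1 did not pass the test with the combination. Gsta4 measured 36, 14.4 and 38.8 CPM and Mgst1 33.4, 26.8 and 34.4 CPM, with log2 fold changes of 0.07 (95% interval -0.28 to 0.41) and 0.12 (95% interval -0.17 to 0.42). Gsta4 passed in 1 of 9 fits with libraries left out, the one without all of replicate 1 (adjusted p = 0.0374). Gstt1 stood at 1.14, 0.144 and 0.841 CPM, where 0.144 CPM is 3 counts. Its log2 fold change was -0.23 (95% interval -1.04 to 0.58).

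The combination was also set against each single agent. Against DAC, which asks what SFN added to DAC, 7 of 10 passed the test, 4 higher and 3 lower, beside 16.1% of all genes (9.55% higher and 6.6% lower), and the median log2 fold change was 0.22 beside 0.00. This comparison shares the 3 combination libraries with the one against control. Gsta3 was 11-fold higher (95% interval 7.97 to 15.3, adjusted p = 6.17e-07) and Gstm1 1.52-fold higher (adjusted p = 0.000282). The remaining changes were 0.35 for Gsto1, 0.27 for Gstp1, -0.29 for Gstm5, -0.51 for Gsta1 and -0.58 for Gsta2 on the log2 scale, with adjusted p from 0.0121 to 0.0412. Without the replicate block 1 gene passed, Gsta3, and with only these groups in the fit 3 passed, Gsta3, Gstm1 and Gsta2. Over all genes these fits called 20 and 748, against 1879 in the main fit. Each of the 5 smaller changes was also lost when single libraries were left out. These were DAC replicate 1, DAC replicate 2, DAC+SFN replicate 1 or DAC+SFN replicate 2 for Gsta1, Gsta2 and Gstm5, DAC replicate 2 or DAC+SFN replicate 1 for Gstp1, and DAC replicate 1 or DAC+SFN replicate 1 for Gsto1. All 5 were lost without all of replicate 1 and without all of replicate 2. The comparisons with and without DAC share no library, since one uses control and SFN and the other DAC and the combination.

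Against SFN, which asks what DAC added to SFN, none of the 10 genes passed edgeR's test, beside 1.61% of all genes, and 2 of 10 had an unadjusted p under 0.05, as 17.8% of all genes did. The called genes of the whole table were 0.937% higher and 0.67% lower. The median log2 fold change was -0.04 beside 0.00. Gsta2 came closest, at -0.65 on the log2 scale (95% interval -1.0 to -0.30, adjusted p = 0.0578), with the combination lower in each replicate number. DESeq2's Wald test called it (adjusted p = 0.0190), as did edgeR without the filter on low counts (adjusted p = 0.00569), with only these groups in the fit (adjusted p = 0.00268), and without SFN replicate 2 (adjusted p = 0.0334) or DAC+SFN replicate 3 (adjusted p = 0.0361). Gsta1 differed by -0.41 on the log2 scale (95% interval -0.73 to -0.10, adjusted p = 0.158). For Gsta3 the interval was -0.08 to 0.64, for Gstm1 -0.23 to 0.11 and for Gstp1 -0.20 to 0.11, which bounds any further change of these genes by DAC on top of SFN.

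The interaction term tested whether the response to SFN differed with and without DAC. It passed for 0 of the 10 genes by edgeR's test, beside 0% of all 11638 genes, and DESeq2's Wald test also called 0. An unadjusted p under 0.05 was seen for 1 of 10, beside 5.87% of all genes. This was Gsta1, with a log2 difference of -0.45 (95% interval -0.89 to -0.0050, adjusted p = 0.852). For Gsta3 the difference was -0.48 (95% interval -1.25 to 0.29), so neither gene was shown to respond to SFN differently in DAC-treated cells.

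The summed level of the 10 genes, as CPM per kilobase, was 303 in control replicate 1, 220.4 in replicate 2 and 260.4 in replicate 3. DAC libraries stood at 316, 197 and 258, SFN libraries at 362, 286 and 327, and combination libraries at 344, 275 and 319.9. Within each replicate number the 2 groups with SFN were above the 2 without it, while the group ranges overlapped. Gstm1 supplied 25.2% of the summed level in control and 32.1% with SFN, and Gstp1 36.7% and 35.8%. Gstm5 went from 8.82% to 5.44%. Gsta3, in spite of its large fold change, went from 0.102% to 1.33%.

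**Figure D3:**
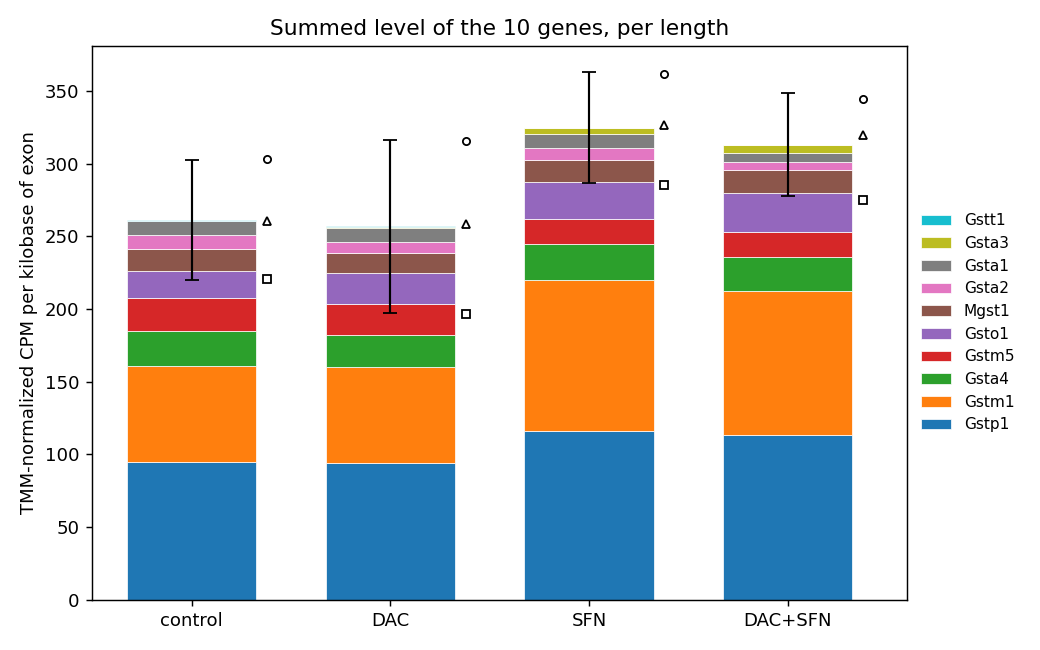
Stacked bars give the mean TMM-normalized CPM per kilobase of exon of each of the 10 genes by treatment group, error bars the SD of the sum over 3 replicates, and circles, squares and triangles the sums in replicates 1, 2 and 3. Gstp1 and Gstm1 make up most of every bar, and the sums range from 197 to 316 without SFN and from 275 to 362 with SFN.

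The levels of these genes also differed between replicate numbers. In a test of the replicate number in the same edgeR model, all 10 genes passed at an adjusted p under 0.05, beside 33.9% of all genes. Replicate 2 had the lowest value in all 4 groups for Gsta1, Gsta2, Gsta4, Gstm5, Gstp1, Gstt1 and Mgst1, and in 3 of 4 groups for Gstm1. Gsta4 was 3.16-fold higher in replicates 1 and 3 than in replicate 2, Gsta2 2.51-fold and Gsta1 1.85-fold. Conversely, Gsto1 was highest in replicate 2 in all 4 groups, 1.31-fold above replicates 1 and 3. In the test of the replicate number the adjusted p was 1.90e-06 for Gsta4, 3.35e-06 for Gsta2, 7.42e-05 for Gsta1 and 0.000759 for Gsto1. That test covers any difference among the replicate numbers, and replicate 2 against the others was not tested. For Gsta4 this spread between repeats was wider than its fitted treatment changes, since its control libraries alone ran from 11.2 to 51.2 CPM. For Gsta3 and Gstm1 the treatment change was the wider one, with 1.29-fold and 1.19-fold between replicate 2 and the others, beside 15.3-fold and 1.58-fold with SFN. The 1.29-fold of Gsta3 averages unlike groups. Its replicate 2 differed from the others by 1.04 with SFN, 0.60 with DAC+SFN, 0.07 in control and -0.23 with DAC on the log2 scale.

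Marker lists moved with the replicate number as well. The 5 fibroblast markers summed to 77.3, 20 and 320.5 CPM in control replicates 1, 2 and 3, and replicate 2 was lowest and replicate 3 highest in every group. Melanocyte markers were highest in replicate 1 in every group, at 31062, 27505 and 25054 CPM in the control libraries. The part of either in the GST differences was not tested. Of the 3 fibroblast markers that passed the filter, 1 fell with SFN, beside 5.65% of all genes. This was Pdgfra, by 0.84 on the log2 scale (adjusted p = 0.0240), while the values were -0.77 for Col1a2 (adjusted p = 0.0525) and -0.20 for Col1a1 (adjusted p = 0.417). With the combination 1 of 3 fell, beside 14.7% of all genes. It was again Pdgfra, by 0.73 (adjusted p = 0.0249), with 0.16 for Col1a1 (adjusted p = 0.446) and -0.14 for Col1a2 (adjusted p = 0.689). None of the 3 passed with DAC, beside 0.18% of all genes. Against DAC the combination had 1 of 3 lower, Col1a2 (adjusted p = 0.0493), beside 6.6% of all genes. Of 8 melanocyte markers 0 passed with SFN or with DAC, beside 13.9% and 0.18% of all genes. With the combination 1 rose and 2 fell, beside 17% and 14.7% of all genes. Slc45a2 rose by 0.18 on the log2 scale (adjusted p = 0.0236). The values were -0.36 for Pmel (adjusted p = 0.0129) and -0.17 for Tyrp1 (adjusted p = 0.0478). Only 1, Tyr, was higher with the combination than with DAC (adjusted p = 0.0442), beside 9.55% of all genes.

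**Figure D4:**
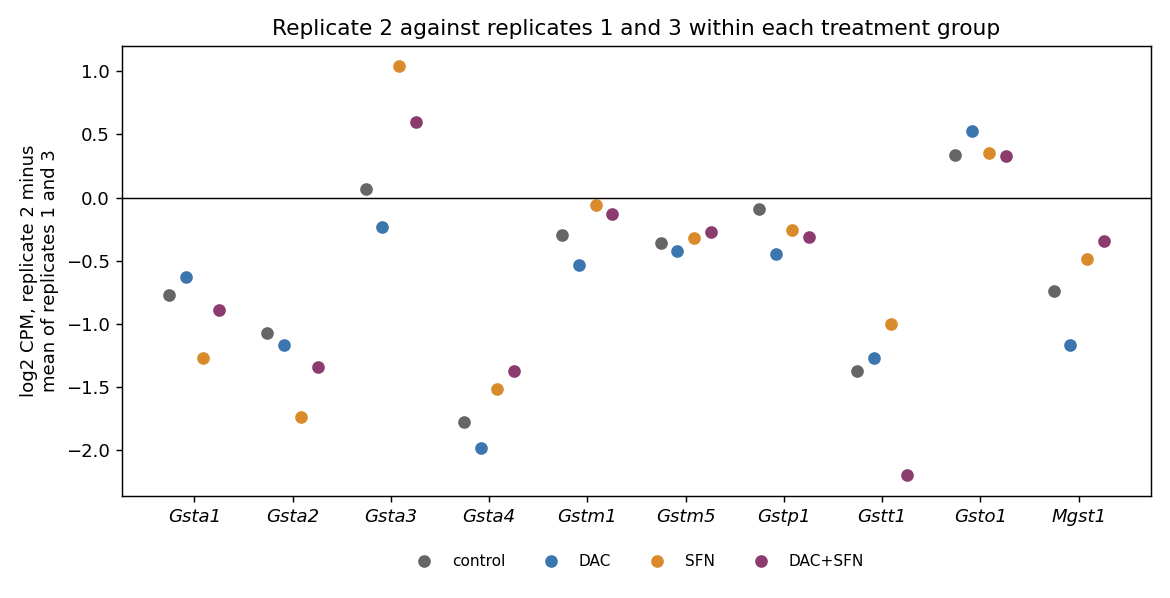
Points give, for each of the 10 genes and each treatment group by colour, the log2 CPM of replicate 2 minus the mean log2 CPM of replicates 1 and 3, with a line at 0. All 4 points lie below 0 for Gsta1, Gsta2, Gsta4, Gstm1, Gstm5, Gstp1, Gstt1 and Mgst1 and above 0 for Gsto1, while Gsta3 has points on both sides.

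The genes most like Gsta3 across the 12 libraries, by Pearson's r of log2 CPM after removal of replicate means, were Aox1 (r = 0.984), Txnrd1 (0.984), Ccdc37 (0.984), Lipa (0.983) and Endod1 (0.982). Aox1 encodes an aldehyde oxidase, Txnrd1 the cytosolic thioredoxin reductase and Lipa the lysosomal acid lipase. With SFN their log2 fold changes were 0.99 for Aox1, 0.74 for Txnrd1, 1.55 for Ccdc37, 0.69 for Lipa and 0.77 for Endod1, each below the 3.94 of Gsta3. Within the 10 genes, Gsta3 and Gstm1 had r = 0.97, Gsta4 and Mgst1 0.90, Gsta1 and Gsta2 0.84, and Gstm5 and Gsto1 -0.95. These values are descriptions over 12 libraries that share replicate numbers and fall into treated and untreated groups.

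Of 24 other genes of the GST family and its relatives, 21 were in the files and 14 passed the filter. With SFN 2 of 14 rose and 0 fell, beside 8.27% and 5.65% of all genes, and the list's median log2 fold change was -0.08 beside 0.00 for all genes. Gstk1, the mitochondrial and peroxisomal kappa-class enzyme, went from 9.80, 12.7 and 9.30 CPM in control to 15.4, 21.1 and 13.8 CPM with SFN, a change of 0.66 ± 0.11 (SE) on the log2 scale (adjusted p = 0.00103). Hpgds, the sigma-class enzyme that makes prostaglandin D2, rose 1.31-fold, or 0.39 ± 0.09 (SE) on the log2 scale (adjusted p = 0.0132). With DAC alone 0 of 14 passed, beside 0.18% of all genes.

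The combination gave 3 of 14 higher and 3 lower against control, beside 17% and 14.7% of all genes, with a median of 0.11 beside 0.01. Gstk1 rose by 0.84 on the log2 scale, the mu-class Gstm7 by 0.75 (adjusted p = 0.00623) and Gstp2 by 0.44 (adjusted p = 0.0323). Gm10639 (-1.09, adjusted p = 0.00134) and Gm3776 (-0.50, adjusted p = 0.0214), alpha-class genes that share exon sequence with Gsta1, fell, as did the microsomal Mgst3 (-0.75, adjusted p = 0.00470). Without the replicate block 0 of 14 passed with SFN and 2 of 14 with the combination, Gstm7 and Gstk1. Left-out libraries also ended the calls for Hpgds (control replicate 1, control replicate 2, SFN replicate 1 or SFN replicate 2), Gstm7 (control replicate 2), Gm3776 (control replicate 2, control replicate 3 or DAC+SFN replicate 1) and Gstp2 (any control library, DAC+SFN replicate 1 or DAC+SFN replicate 2). Without all of replicate 1 the calls for Gm10639 (adjusted p = 0.0552), Mgst3 (adjusted p = 0.101), Hpgds, Gm3776 and Gstp2 were lost. Those for Hpgds, Gm3776 and Gstp2 were lost without all of replicate 2, and that for Gm3776 without all of replicate 3. Against SFN the combination had 0 of 14 higher and 1 lower, beside 0.937% and 0.67% of all genes. This was Gm10639, at -0.90 on the log2 scale (adjusted p = 0.0471).

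After conjugation, glutathione adducts are trimmed by gamma-glutamyltransferases and dipeptidases, acetylated to mercapturates and pumped out by ABC transporters. Of 24 genes listed for these steps, 21 were in the files and 13 passed the filter, of which 3 rose and 2 fell with SFN, beside 8.27% and 5.65% of all genes. With DAC 0 of 13 passed, beside 0.18%, and with the combination 4 rose and 2 fell, beside 17% and 14.7%. The median log2 fold changes were 0.10 with SFN, 0.00 with DAC and -0.03 with the combination, beside 0.00, 0.00 and 0.01 for all genes. Ggt1, a surface gamma-glutamyltransferase, measured 10.3, 15.1 and 12 CPM in control, 30.2, 53.4 and 22.4 CPM with SFN and 47.2, 67.6 and 27.8 CPM with the combination. All treated libraries were above all controls, with log2 fold changes of 1.45 (adjusted p = 8.06e-05) and 1.88 (adjusted p = 3.78e-06). Chac1, which degrades glutathione in the cytosol, fell by 0.998 on the log2 scale with SFN (adjusted p = 1.69e-05) and by 0.86 with the combination (adjusted p = 2.08e-05).

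Other called genes of this list changed less. The exporter Abcg2 rose by 0.39 with SFN (adjusted p = 0.0266) and 0.45 with the combination, Ggt7 by 0.38 (adjusted p = 0.0176) and 0.44, and the glutathione conjugate pump Abcc1 by 0.34 with the combination (adjusted p = 0.00483). Abcc5, an exporter of organic anions, fell by 0.23 with SFN (adjusted p = 0.0169) and by 0.17 with the combination (adjusted p = 0.0397). Without the replicate block 0 of 13 passed with SFN and 3 of 13 with the combination, Ggt1, Abcc1 and Chac1. Leaving out single libraries ended the SFN calls of Ggt7 (control replicate 1, control replicate 2, SFN replicate 1 or SFN replicate 2), Abcg2 (control replicate 2, control replicate 3, SFN replicate 2 or SFN replicate 3) and Abcc5 (control replicate 3, SFN replicate 2 or SFN replicate 3). It also ended the combination calls of Abcg2 (control replicate 2) and Abcc5 (control replicate 1, control replicate 3, DAC+SFN replicate 1 or DAC+SFN replicate 3), and with only the groups compared in the fit Abcc5 was not called with the combination. Without all of replicate 1 or of replicate 2 the combination calls of Ggt7 (adjusted p = 0.0947 and 0.0977) and Abcc1 (adjusted p = 0.101 and 0.0547) were lost too, as was that of Abcg2 without replicate 2. The SFN call of Ggt7 was also lost without replicate 1 or 2, that of Abcg2 without replicate 2 or 3, and both calls of Abcc5 without any 1 replicate number.

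**Figure D5:**
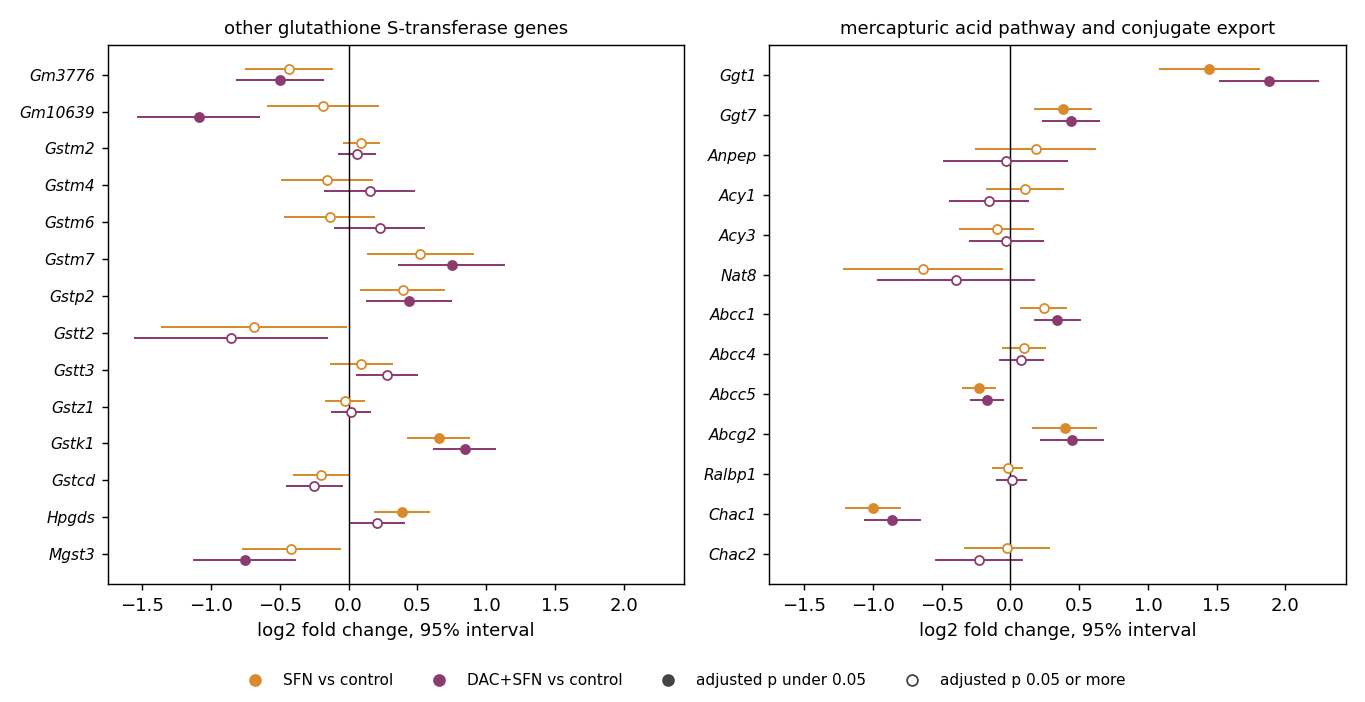
Points give the fitted log2 fold change against control and bars its 95% interval for the 14 other GST genes (left) and the 13 genes of mercapturate formation, conjugate export and glutathione breakdown (right) that passed the filter, with colours for SFN and DAC+SFN and filled points for an adjusted p under 0.05. Ggt1 lies farthest to the right, at 1.45 and 1.88, and Gm10639 and Chac1 farthest to the left among filled points.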

How the data were processed

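Libraries were made from polyadenylated RNA with a stranded kit and sequenced as single 75-base reads. As the authors describe, reads were checked with FastQC 0.11.7, trimmed with Trimmomatic 0.38, aligned to mm10 with TopHat2 2.1.1 and counted with HTSeq, keeping uniquely aligned reads only. The deposited values are raw counts per gene symbol, 1 file per library. The annotation and strand setting used for counting are not given in the sources used here. Discarding multimapped reads lowers genes with near-identical copies, such as Gsta1, Gsta2 and Gstp1. Genes were followed by symbol. The Entrez number beside Gsta4 in the files is that of Gstm2 in RefSeq, and the number beside Gstm5 is that of Gstm1. Which column is right is not settled, so the Gsta4 and Gstm5 results hold only if the symbols are correct. Gstm2, among the other GST genes, has such a mismatch too, and 397 Entrez numbers stand beside more than 1 symbol.

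Counts were tested with edgeR 4.0.16 in R 4.3.3 (TMM normalization, glmQLFit and glmQLFTest, legacy fit), with genes of at least 1 CPM in at least 3 libraries, all 12 libraries in 1 model, and the replicate number as a block. The study corrected for batch without naming its source. Same-numbered libraries deviated together from their group means (r = 0.270 to 0.732 over 18 pairs), so the numbers were taken to pair the libraries. A gene was called at a Benjamini-Hochberg adjusted p under 0.05 over 11638 genes, and intervals are at 95%. Adjusted p-values in the text are from this test unless another is named. Levels per kilobase used the exon union of GENCODE M21 on mm10, and exon windows were matched among annotated transcripts. Promoters came from RefSeq (GRCm38.p6).

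Genes named were the 10 members, called genes of the 2 related lists, and the 5 genes closest to Gsta3 by correlation. The members and lists were chosen with earlier results of these data known. Single genes named after their values were seen are Col1a1, Col1a2, Dcn, Lum, Pdgfra, Pmel, Slc45a2, Tyr and Tyrp1. On simulated counts for SFN against control over 11638 genes, the test recovered 25 of 50 genes changed 1.3-fold, 40 of 50 changed 1.5-fold and 49 of 50 changed 2-fold, with 7 false calls. Alternatives were DESeq2 1.42.0 size factors and Wald test, other filters, fits, prior counts and call rules, the fit without the block, fits of only the groups compared, and leaving out libraries or replicate numbers. Summing the alpha-class paralogs, and list counts under each alternative, were added after seeing the data.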

Additional observations from a re-analysis of the deposited data

Results flagged for a closer look

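Abcc5, an organic anion exporter on the list of conjugate export genes, was lower with DAC alone and higher with DAC on top of SFN in every replicate number, though neither difference passed the test. DAC was below control within each of the 3 replicate numbers, by 0.09, 0.08 and 0.21 on the log2 scale (93.9 ± 5.76 CPM in control and 86.0 ± 4.56 CPM with DAC, mean ± SD, n = 3), and the edgeR adjusted p was 0.479. The combination was above SFN within each replicate number, by 0.02, 0.08 and 0.09 (80.2 ± 7.11 CPM with SFN and 83.6 ± 5.02 CPM with the combination), with an adjusted p of 0.625. The difference between these responses, the interaction term of the edgeR model, was 0.19 (95% interval 0.01 to 0.37), and it did not pass (adjusted p = 0.850).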

How the results depend on the processing

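No value of a gene called in the text changed sign in 650 values under the alternatives, and among 600 values of uncalled member genes not given one by one 51 did. Of the uncalled values that are given, Gstt1 with SFN was 0.0044 by DESeq2's Wald test and Gsta4 with the combination was -0.034 without the replicate block. Leaving out libraries also turned the sign of uncalled values, which ranged from -0.20 to 0.079 for Gsta1 with SFN, -0.042 to 0.33 for Gsta4 with SFN, -0.16 to 0.39 for Gsta4 with the combination, -0.50 to 0.50 for Gstt1 with SFN, -0.53 to 0.0036 for Gstt1 with the combination and -0.024 to 0.29 for Mgst1 with the combination.

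Without the replicate block, the counts of called genes were 1 of 10 GSTs with SFN, 2 with the combination and 1 for the combination against DAC. Calls over all 11638 genes also dropped, to 23, 1201 and 20 from 1619, 3683 and 1879 in the main fit. For the other GST genes they were 0 with SFN and 2 with the combination, and for the mercapturate list 0 and 3. For the combination against SFN, 1 GST (Gsta2) was called by DESeq2's Wald test, without the filter, and with only the groups compared. Over all genes these fits called 410, 486 and 1267, against 187 in the main fit. The fit of only the groups compared also called 3 GSTs for the combination against DAC and 4 other GST genes with SFN. Without the filter 5 other GST genes were called with SFN. Over all genes these counts were 748, 1914 and 1826. Requiring a fold change above 2 left 1 GST in each of the 3 comparisons with SFN-free cells, 0 and 1 other GST genes with SFN and the combination, and 1 mercapturate gene with each. DESeq2 size factors, the newer edgeR fit, filterByExpr and a prior count of 2 left each GST count as it was.

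Leaving out 1 library or 1 replicate number gave 3 to 6 called GSTs with SFN, 5 to 7 with the combination, 2 to 7 for the combination against DAC, 0 to 1 for the combination against SFN and 0 for DAC and for the interaction. It gave 1 to 4 and 2 to 7 other GST genes with SFN and the combination, 2 to 4 and 2 to 6 mercapturate genes, and 9 to 10 GSTs that differed between replicate numbers. With the longest transcript as the length, control levels were 179 CPM per kilobase for Gstp1, 75.2 for Gstm1, 32.3 for Gsto1, 31.2 for Gsta4, 27.2 for Gstm5, 25.5 for Mgst1 and 0.413 for Gsta3, which puts Gsto1 above Gsta4 and Gstm5. Depth limits Gstt1 throughout and Gsta3 in cells without SFN.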
